A study of Mus musculus with 8 samples.

Results

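The genes described here are 29 genes of cholesterol and fatty acid synthesis, measured by RNA-seq in Paneth cells, the granule-filled secretory cells at the base of the crypts of the small intestine. They were chosen by name, as the rows of the count table whose Ensembl ID maps to one of the listed symbols. The rule used no measured value, but the list was drawn up with earlier results of these data known. All 29 were found among the 55414 gene IDs of the table. 18 of them encode enzymes of sterol synthesis, 5 encode the sensors and regulators of the pathway (Srebf1, Srebf2, Scap, Insig1 and Insig2), 1 encodes a sterol carrier (Stard4) and 5 encode enzymes of fatty acid synthesis and desaturation. Other enzymes of these routes are not described here.

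The study asked how tumor necrosis factor (TNF, an inflammatory cytokine) alters the transcriptome of Paneth cells. Wild-type (WT) mice received an injection of phosphate-buffered saline (PBS, the control) or of TNF, the small intestine was taken 3 hours later in both groups, and Paneth cells were purified on a cell sorter, with 4 libraries per group. The study's methods name C57BL/6J mice, and the sources used here state neither the age of the mice nor the dose. The injection exposes the whole animal, so an action of TNF on the Paneth cells themselves and one through other cells cannot be told apart.

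As background, cholesterol is built from acetyl-CoA through mevalonate, farnesyl diphosphate, squalene and lanosterol, and fatty acids are built from the same acetyl-CoA by a separate set of cytosolic enzymes. Both routes are governed by the sterol regulatory element-binding proteins (SREBPs), encoded by Srebf1 and Srebf2, which are made as membrane proteins of the endoplasmic reticulum. When sterols are scarce, the escort protein Scap carries them to the Golgi, where they are cut and release a transcription factor that enters the nucleus. When sterols are plentiful, the Insig proteins hold Scap back. SREBP-2 acts mainly on sterol genes and SREBP-1 mainly on fatty acid genes, and both proteins can raise the transcription of their own pathway. In a secretory cell with an extensive endoplasmic reticulum, such as the Paneth cell, these lipids supply the membranes of the secretory route.

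TNF moved these genes in both directions, and neighbouring steps of the same route differed. The transcripts of both SREBP genes rose, as did those of Insig2, of the late mevalonate enzyme Mvd and of the late sterol enzymes Sc5d and Cyp51, while those of Hmgcs1 at the entry of the sterol route, of Acly and Acaca at the entry of the fatty acid route, and of the carrier Stard4 fell. Of the 29 genes, 28 passed the filter on low counts and 1 (Scd1) did not. In edgeR's quasi-likelihood test, with p-values adjusted by the Benjamini-Hochberg method over 13368 genes and a call at an adjusted p under 0.05, 11 of the 28 were called higher in TNF and 5 lower. Across all genes tested, 23.3% were called higher and 19.6% lower, so calls were frequent across the whole table. The 4 TNF and the 4 PBS values did not overlap for 12 of the 28 genes, against 42.1% of all genes tested. The median log2 fold change (TNF against PBS throughout) of the 28 was 0.19, with a range from -0.85 to 1.56, and that of all genes tested was 0.03. With library size alone as the scaling, the split of the calls changed from 11 higher and 5 lower to 1 higher and 3 lower, and the median of the 28 became -0.23 where that of all genes became -0.38, and of the genes named here only Mvd (higher) and Acaca and Stard4 (lower) were still called.

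The libraries held 23824717 to 32576077 counts, and the 29 genes took 10528 to 32999 of them. TNF replicate 4 stood apart from the other libraries. Its trimmed-mean (TMM) scaling factor was 0.448 against 0.9952 to 1.357 in the other 7 libraries, and the 29 genes held 0.0405% of its counts against 0.0812% to 0.111% in the others. After scaling, this library gave the highest TNF value for 16 of the 28 genes and the lowest for 8. Such ranks were not particular to it, as PBS replicate 1 gave the highest PBS value for 16 genes and PBS replicate 4 the lowest for 15. Levels are given below as normalized CPM, that is counts divided by the TMM-adjusted library size, and where 4 values are listed for a group they follow replicates 1 to 4. Because RNA was extracted from a bulk of cells, fewer cells that express a gene and less RNA per cell cannot be told apart.

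The label of the cells was checked against marker genes. All 9 Paneth markers were detected, with summed levels of 337400 to 507000 normalized CPM in PBS and 421100 to 1301000 in TNF (the last value was that of TNF replicate 4, whose low scaling factor shrinks the library size that its counts are divided by). Of these 9, Pla2g2a and Sox9 were called higher. Defining markers of T cells, macrophages and killer cells (Cd3e, Adgre1 and Nkg7) and of fibroblasts (Col1a2 and Col3a1) had 0 counts in all 8 libraries. Further markers of these lists were detected at low counts, among them Itgam (69 over all 8 libraries), Ptprc (39), Pecam1 (20) and Col1a1 (10, all in TNF). The exception was Lyz2 of the immune list, with 266 to 749 counts per library, which made up most of the immune sum. It was at 6.25–11.7 normalized CPM in PBS and 9.4–64.4 in TNF, with the highest value in TNF replicate 4. Lyz2 was not called (log2 fold change 1.37, adjusted p = 0.0805). Of the 2 immune and 1 stromal markers that could be tested, Cd52 and Vim were called higher. The summed immune markers were at 7.06 to 12.97 normalized CPM in PBS and 10.8 to 68.7 in TNF, and the summed stromal markers at 0.223 to 0.453 and 1.23 to 1.73. Enterocyte markers summed to 50.8 to 73.8 in PBS and 39.3 to 87.7 in TNF, with 1 of 8 (Apoa4) lower. Among other crypt cells, 3 of 5 enteroendocrine markers (Chga, Chgb and Gcg) were called higher, with sums of 10.3 to 13.2 in PBS and 30.3 to 61.01 in TNF, and 4 of 6 stem cell markers (Lgr5, Ascl2, Axin2 and Smoc2) were called lower, with sums of 1894 to 2783 and 1709 to 2242. Goblet markers summed to 7160 to 11190 in PBS and 11240 to 25450 in TNF, with Muc2 higher and Clca1 and Fcgbp lower of 7. Of 6 cycling markers Birc5 was lower, with sums of 157.3 to 192.2 and 128.3 to 170.1, and none of 3 tuft markers was called, with sums of 11.9 to 27.3 and 7.58 to 52.9. The part of these cell types in the results below was not tested.

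SREBPs bind sterol regulatory elements (SRE) in promoters, so the DNA upstream of the 29 genes was searched on both strands, from 250 bases before to 50 bases after the annotated start of the canonical transcript (GRCm39, GENCODE release 39). The letters searched were TCACNCCAC for the SRE, CCAAT for the CCAAT box that often accompanies it, and GGANTTTCC for an NF-kB site, NF-kB being the main transcription factor downstream of TNF. An SRE match was present in 3 of the 29 promoters and in 1.34% of 21757 promoters of protein-coding genes. The 3 genes were Hmgcs1 and Acaca, which fell, and Fasn, which rose, so the letters were found on genes of either direction. The surroundings of the matches in the genes that fell are shown, each read 5′ to 3′ on the strand of the gene, with the match in capitals. They lie at chr13:120151732-120151788 on the plus strand (match 232 bases upstream of the start) and at chr11:84063820-84063888 on the plus strand (98 bases).
Hmgcs1: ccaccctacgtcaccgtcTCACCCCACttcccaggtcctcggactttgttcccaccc
Acaca: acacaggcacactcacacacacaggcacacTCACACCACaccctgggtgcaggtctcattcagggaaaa

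The CCAAT box was found in 20 of the 29 promoters and in 39.9% of all, among them 8 of the 11 genes called higher and 4 of the 5 called lower. The NF-kB letters were found in 0 of the 29 and in 1.34% of all. No match of one motif shared a base with a match of another in these windows (0 overlaps). A match or its lack describes these letters in this window and not the binding of a factor.

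**Figure D1:**
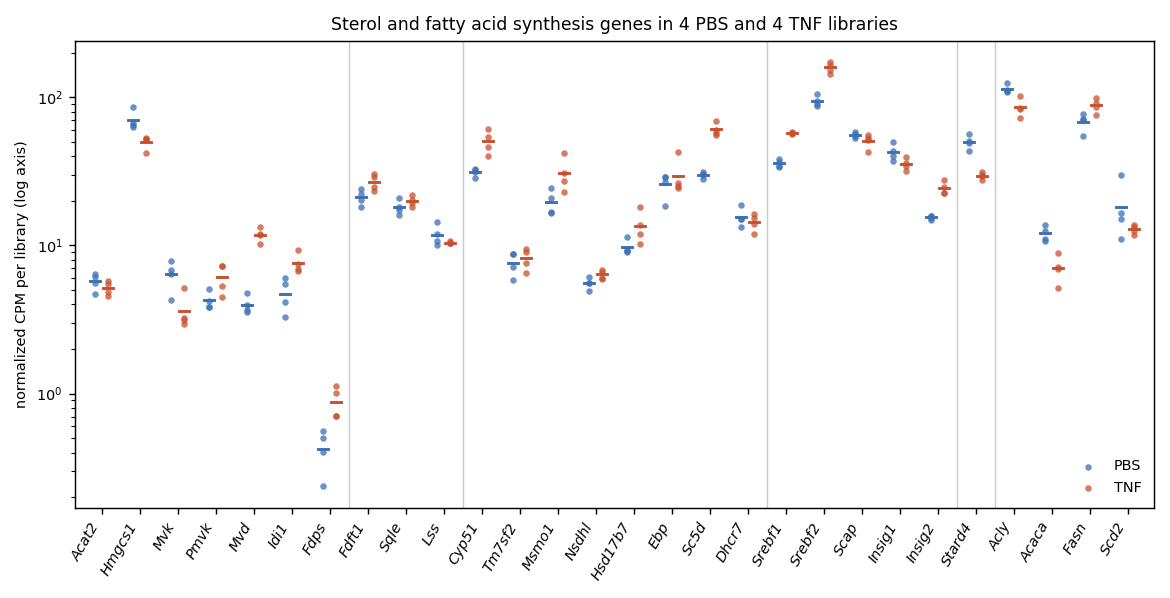
Normalized CPM per library (vertical log axis) for the 28 tested genes, grouped from left to right as mevalonate enzymes, squalene and lanosterol enzymes, lanosterol to cholesterol enzymes, regulators, Stard4 and fatty acid enzymes. Each point is 1 library (blue PBS, red TNF, 4 each) and each bar a group mean, and the groups lie apart for 12 genes, among them Mvd, Sc5d, Srebf1, Srebf2, Insig2 and Stard4.

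The first question was what TNF did to the regulators, since they sit above all other genes of the set. 3 of the 5 were called higher and 0 lower (60% called, against 43% of all genes tested). Srebf2 (ENSMUSG00000022463, chr15:82031382-82093201, plus strand), which encodes the SREBP of the sterol genes, was at 106, 94.7, 90.3 and 87.4 normalized CPM in the PBS libraries and at 154, 166, 173 and 145 in those given TNF. Every TNF library was thus above every PBS library, with means of 159.5 ± 12.8 and 94.5 ± 8.04 (SD, n = 4 each). The log2 fold change was 0.76 (SE 0.12, adjusted p = 0.000495), and the call was lost with library size alone (0.39, adjusted p = 0.398).

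Srebf1 (ENSMUSG00000020538, chr11:60089913-60113407, minus strand), whose products act mainly on fatty acid genes, also rose. Its normalized CPM were 34.5, 38.2, 36.5 and 33.8 in PBS and 57.1, 56.9, 57.2 and 58.2 in TNF. The TNF libraries were almost level with each other, with a mean of 57.3 ± 0.577 against 35.8 ± 1.99 in PBS, and TNF replicate 4 did not stand out. The fitted change was 0.68 on the log2 scale (SE 0.09, adjusted p = 0.000221), which library size alone reduced to no call (0.29, adjusted p = 0.507). The counts are summed over the gene and do not separate the isoforms of Srebf1.

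The escort protein's gene Scap did not pass the test. Its values were 53.3, 56.1, 55.1 and 58.5 in PBS and 52.8, 55.95, 51.6 and 42.5 in TNF, where replicate 4 was the lowest of the 8. The log2 fold change was -0.14 (SE 0.11, adjusted p = 0.354).

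The retention factors, Insig1 and Insig2, differed. Insig1, itself a known target of the SREBPs, was at 43.6, 49.6, 37.3 and 40.5 in PBS and 31.7, 35.9, 34.6 and 39.8 in TNF. The groups overlapped through TNF replicate 4, and the call was missed with all libraries (log2 fold change -0.27, SE 0.12, adjusted p = 0.0977) and made without that library (-0.31, adjusted p = 0.0359). Insig2 (ENSMUSG00000003721, chr1:121181760-121260400, minus strand), which, unlike Insig1, is not a typical SREBP target, was at 15.9, 15.3, 15.8 and 14.8 in PBS and 22.6, 24.6, 22.5 and 27.8 in TNF. Here all TNF values were above all PBS values, and the log2 fold change was 0.65 (SE 0.11, adjusted p = 0.00069), with no call under library size alone (0.23, adjusted p = 0.584). Within each library the level of Insig2 relative to Insig1 was 0.309 to 0.425 in PBS and 0.652 to 0.713 in TNF, a ratio that does not depend on the scaling. The Srebf2 level relative to Scap was 1.49 to 1.98 in PBS and 2.91 to 3.41 in TNF. These pairs were chosen with the values known, carry no test, and are not corrected for transcript length.

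A list of 12 further genes holds the proteases that cut the SREBPs and the ubiquitin machinery by which sterols trigger the degradation of enzymes and Insigs. All 12 were tested, 3 were called higher and 2 lower, and the median log2 fold change was 0.06. The share called, 41.7%, was close to the 43% of all genes tested. The largest rise was that of Rnf145, a ubiquitin ligase of this machinery, with 8.01–10.2 normalized CPM for PBS and 13.7–16.97 for TNF (log2 fold change 0.73, SE 0.13, adjusted p = 0.000914). Faf2, which helps extract proteins from the endoplasmic reticulum, rose by 0.36 (adjusted p = 0.0145), but leaving out PBS replicate 1 or 4, or TNF replicate 1 or 2, ended this call (adjusted p = 0.108, 0.0683, 0.103 and 0.12). Mbtps1, the first protease of SREBP cleavage, fell from 54.1–56.2 to 36.5–41.6 (-0.50, SE 0.10, adjusted p = 0.0016). Erlin2, a scaffold of the degradation complex, had a log2 fold change of -0.37 (adjusted p = 0.0164), and its call was lost without PBS replicate 1 or TNF replicate 1 (adjusted p = 0.0616 and 0.0648). Library size alone ended the calls of Rnf145 (0.37, adjusted p = 0.423), Mbtps1 (-0.87, adjusted p = 0.0635) and Erlin2 (-0.74, adjusted p = 0.114), and put Faf2 at -0.00 (adjusted p = 0.997).

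The 7 enzymes from acetyl-CoA to farnesyl diphosphate moved apart, with 3 called higher, 2 lower and 2 not called. Calls thus covered 71.4% of them, against 43% of all genes tested. At the entry, Hmgcs1 (ENSMUSG00000093930, chr13:120151915-120170470, plus strand), the cytosolic synthase of hydroxymethylglutaryl-CoA and a classical SREBP target whose promoter holds the match printed above, fell. It was at 85.5, 67.2, 65.2 and 63.1 normalized CPM in PBS and 51.7, 52.98, 52.1 and 41.9 in TNF. The groups did not overlap, although PBS replicate 1 was the highest and TNF replicate 4 the lowest of the 8. The log2 fold change was -0.50 (SE 0.13, adjusted p = 0.0112), and without PBS replicate 1 the adjusted p was 0.0563. Acat2, the thiolase that comes before it, ranged over 4.69–6.46 in PBS and 4.55–5.78 in TNF and was not called (adjusted p = 0.494).

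The mevalonate kinase gene Mvk was lower in TNF (2.94–5.16 against 4.301–7.88 normalized CPM in PBS, log2 fold change -0.85, SE 0.23, adjusted p = 0.013). Its groups overlapped because TNF replicate 4, at 5.16, lay above PBS replicate 4, at 4.301, while TNF replicates 1 to 3 ranged from 2.94 to 3.23. The next kinase, Pmvk, ranged over 3.86–5.07 in PBS and 4.501–7.304 in TNF. It stayed just outside the call (0.51, SE 0.19, adjusted p = 0.0516) and was called without TNF replicate 2 (adjusted p = 0.0292).

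Mvd (ENSMUSG00000006517, chr8:123160336-123170324, minus strand), the decarboxylase that makes isopentenyl diphosphate, had the largest change of the set. Its PBS libraries were at 4.75, 3.94, 3.67 and 3.58 normalized CPM and its TNF libraries at 11.8, 13.3, 10.2 and 11.9. The lowest TNF value was above the highest PBS value, and the means were 3.98 ± 0.532 and 11.8 ± 1.29 (SD, n = 4 each). The log2 fold change was 1.56 (SE 0.15, adjusted p = 1.33e-05). The ratio of Mvd to Mvk within a library was 0.567 to 0.832 in PBS and 2.3 to 4.53 in TNF.

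Both enzymes after Mvd were also called higher. Idi1, the isomerase that turns isopentenyl into dimethylallyl diphosphate, was at 5.47, 5.99, 4.14 and 3.28 in PBS and 6.89, 7.51, 6.74 and 9.28 in TNF, with no overlap (0.68, SE 0.20, adjusted p = 0.0192). Its call was lost without PBS replicate 3 (adjusted p = 0.0564) and with library size alone (0.26, adjusted p = 0.539). Library size alone with TNF replicate 4 left out gave no call for Idi1 either (0.43, adjusted p = 0.0891). Fdps, farnesyl diphosphate synthase, was the weakest signal among the tested genes, with 6 to 29 counts per library. It was at 0.402, 0.558, 0.237 and 0.498 in PBS and 0.7101, 1.004, 0.702 and 1.12 in TNF (1.01, SE 0.33, adjusted p = 0.0302), and leaving out PBS replicate 1, PBS replicate 3 or TNF replicate 2 ended the call (adjusted p = 0.0839, 0.0778 and 0.0998). Summed over the 7 enzymes, the levels were 83.3 to 115.5 normalized CPM in PBS and 81.2 to 88.1 in TNF, which overlapped. Hmgcs1 makes up most of that sum.

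Farnesyl diphosphate also feeds branches that end in dolichol, ubiquinone and prenylated proteins. A list of 14 genes held these branches and the redox partners of the sterol enzymes. Of these, 13 were tested, 3 were called higher and 3 lower, with a median of -0.08. The share called, 46.2%, was close to the 43% of all genes tested. Nus1, a subunit of the enzyme that makes the dolichol chain for protein glycosylation, was at 47.6, 45.98, 41 and 45.8 normalized CPM in PBS and at 102, 120.0, 100.3 and 83.7 in TNF (1.17, SE 0.13, adjusted p = 4.16e-05). Ggps1, which extends farnesyl to geranylgeranyl diphosphate, rose from 8.18–9.78 to 16.01–21.2 (1.04, SE 0.13, adjusted p = 0.000104). Aacs, which activates acetoacetate for lipid synthesis, rose by 0.52 (SE 0.11, adjusted p = 0.00323). In the other direction, Cyb5r3, a reductase that supplies electrons to the desaturases, had a log2 fold change of -0.52 (adjusted p = 0.00714). With library size alone the calls of Nus1 (0.82, adjusted p = 0.0976), Ggps1 (0.60, adjusted p = 0.148), Aacs (0.15, adjusted p = 0.765) and Cyb5r3 (-0.87, adjusted p = 0.0782) were lost. Idi2, the second isomerase, had 0 counts in all 8 libraries.

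The 3 enzymes that join farnesyl units into squalene and fold it into lanosterol gave no call. Sqle, squalene epoxidase, a rate-limiting step and a strong SREBP target, was at 21, 18.3, 16.2 and 17.4 normalized CPM in PBS and at 18.04, 19.5, 21.98 and 20.4 in TNF. The groups overlapped widely, and the log2 fold change was 0.13 (SE 0.12, adjusted p = 0.399) and changed sign to -0.27 with library size alone. Fdft1, squalene synthase, ranged over 18.3–24 in PBS and 23.3–30.3 in TNF and narrowly missed the call (0.35, SE 0.13, adjusted p = 0.0516), which it passed without PBS replicate 2 or TNF replicate 4 (adjusted p = 0.046 and 0.0217). Lss, lanosterol synthase, had a fold change of -0.18 (SE 0.13, adjusted p = 0.292), with 10.1–14.4 in PBS and 10.3–10.7 in TNF.

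The 8 enzymes from lanosterol to cholesterol were the part of the sterol route with called rises and no called fall. 4 were called higher and 0 lower, 7 of 8 fitted changes were positive, and the median was 0.34. The share called, 50%, was near the 43% of all genes tested. With library size alone, Tm7sf2, Nsdhl and Ebp turned negative (-0.32, -0.20 and -0.28), at a shift of all genes to -0.38, and all 4 calls were lost (Sc5d adjusted p = 0.158, Cyp51 0.578, Msmo1 0.719 and Hsd17b7 0.813). With TNF replicate 4 also left out, Sc5d was the 1 of the 4 called (adjusted p = 0.00149). Summed over the 8 enzymes, the levels were 133.8 to 157.1 normalized CPM in PBS and 180.9 to 255.2 in TNF and did not overlap. The mean sum in TNF was 1.47 times that in PBS.

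Sc5d (ENSMUSG00000032018, chr9:42162891-42175605, minus strand), the desaturase that forms the ring double bond of the last intermediates, roughly doubled. It was at 29.8, 30.3, 28.03 and 31.5 normalized CPM in PBS and at 55.9, 57.1, 60.5 and 69.2 in TNF. The PBS libraries lay within a narrow band and the TNF libraries far above it. Their means were 29.9 ± 1.44 and 60.7 ± 6.0 (SD, n = 4 each), and the fitted change was 1.02 on the log2 scale (SE 0.11, adjusted p = 3.22e-05), against 0.59 with library size alone. Against Hmgcs1 at the start of the route, the Sc5d level in the same library was 0.348 to 0.4995 in PBS and 1.08 to 1.65 in TNF.

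Cyp51 (ENSMUSG00000001467, chr5:4123416-4154751, minus strand), the demethylase that acts on lanosterol itself, was at 32.4, 31.4, 28.5 and 33.01 in PBS and at 40.4, 46.3, 54.4 and 60.9 in TNF. The groups did not overlap, and TNF replicate 4 was the highest of the 8. The log2 fold change was 0.69 (SE 0.14, adjusted p = 0.00221). The call was lost with library size alone (0.24, adjusted p = 0.578), and library size alone with TNF replicate 4 left out gave no call either (0.41, adjusted p = 0.0613). Relative to Dhcr7, the reductase of the final step, Cyp51 was at 1.73 to 2.48 in PBS and 3.002 to 4.35 in TNF.

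Msmo1 and Hsd17b7, which take part in removing the methyl groups of the sterol ring, were called higher with overlapping groups. Msmo1 ranged over 16.6–24.2 in PBS and 22.8–42.02 in TNF (0.63, SE 0.20, adjusted p = 0.0226), and its call was lost without PBS replicate 3 or 4 (adjusted p = 0.0674 and 0.0593). Hsd17b7 ranged over 8.97–11.3 and 10.2–18.3 (0.48, SE 0.18, adjusted p = 0.0486). It passed in only 2 of the 17 other analyses run. The enzymes of this stretch without a call were Tm7sf2 (0.10, adjusted p = 0.684), a sterol reductase, Nsdhl (0.20, adjusted p = 0.251), a further enzyme of demethylation, Ebp (0.19, adjusted p = 0.478), a sterol isomerase, and Dhcr7 (-0.11, adjusted p = 0.566). For Ebp the TNF value of replicate 4 (42.5 normalized CPM) was above all other libraries (18.5 to 29.1), and without it the fold change was -0.01.

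**Figure D2:**
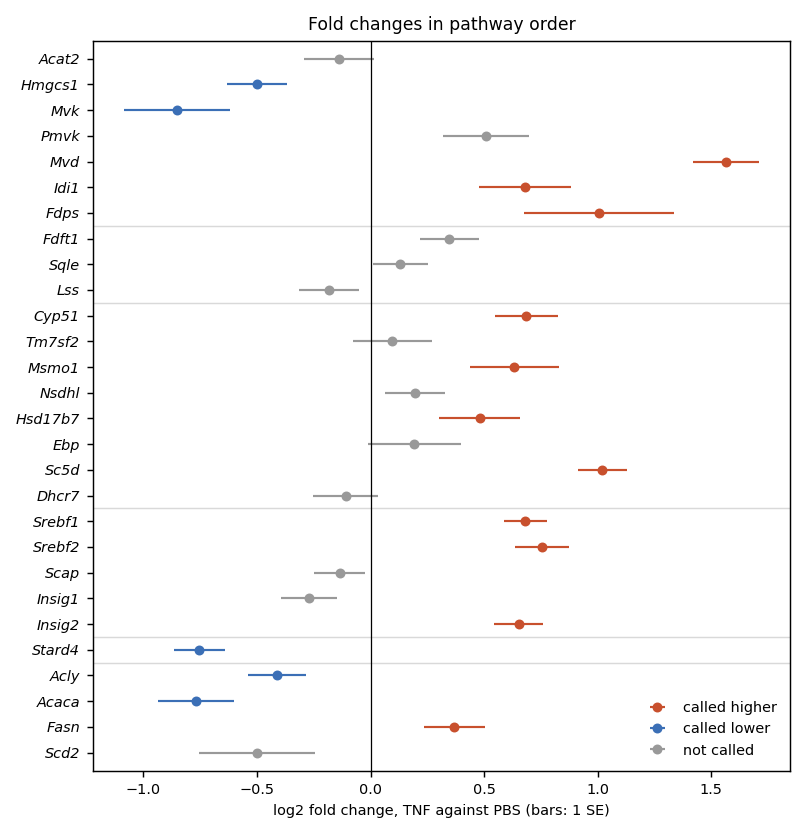
Log2 fold change of TNF against PBS with its SE (horizontal bars) for the 28 tested genes, in the order of the route, with calls at an adjusted p under 0.05 marked by color (11 higher, 5 lower). The called early mevalonate steps lie below 0 (Hmgcs1 at -0.50, Mvk at -0.85) and the called later ones above it (Mvd at 1.56), while 7 of the 8 lanosterol to cholesterol enzymes lie above 0 with this scaling and 3 of them (Tm7sf2, Nsdhl and Ebp) fall below 0 with library size alone.

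**Figure D3:**
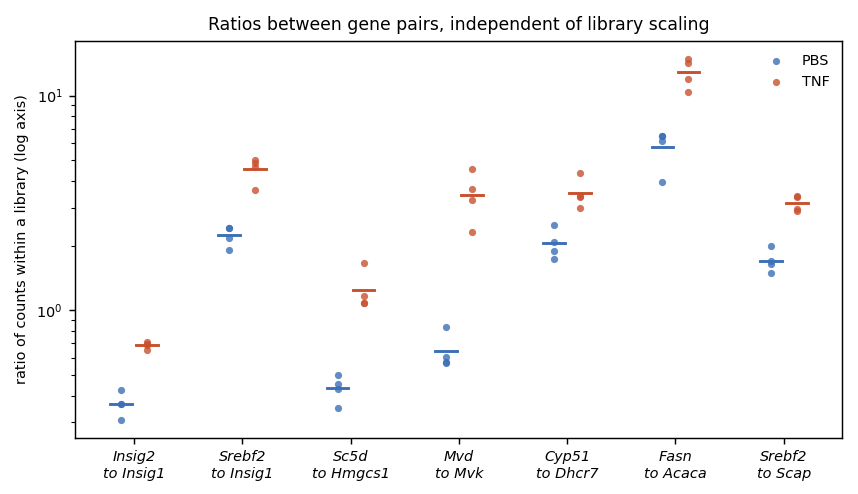
Ratios of the levels of 2 genes within each library (points, 4 PBS and 4 TNF), which do not depend on how libraries are scaled. Insig2 to Insig1, Srebf2 to Scap, Srebf2 to Insig1, Sc5d to Hmgcs1, Mvd to Mvk, Cyp51 to Dhcr7 and Fasn to Acaca were higher in every TNF library than in every PBS library, for pairs chosen with the values known.

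Beyond synthesis, Stard4, a soluble carrier that moves cholesterol between membranes and a target of SREBP-2, went down while Srebf2 went up. Its normalized CPM were 56.5, 49.4, 43.2 and 50.5 in PBS and 29.6, 27.5, 29.99 and 31.4 in TNF. All 4 TNF libraries were below all 4 PBS libraries, and the log2 fold change was -0.75 (SE 0.11, adjusted p = 0.000347). This call was made in all 17 other analyses.

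A list of 25 genes for sterol uptake, efflux, storage and oxysterols was placed beside it. Of the 23 tested, 2 were called higher and 6 lower, with a median of -0.30. The share called, 34.8%, was below the 43% of all genes tested. Mylip, a ubiquitin ligase that is induced by oxysterol receptors and degrades lipoprotein receptors, rose from 5.07–8.31 to 9.45–13.6 normalized CPM (0.80, SE 0.18, adjusted p = 0.00481). Nr1h2, the gene of an oxysterol receptor, rose by 0.38 (adjusted p = 0.0101), a call lost without PBS replicate 1, TNF replicate 1 or TNF replicate 2 (adjusted p = 0.0798, 0.0506 and 0.0692), while Rxra, the gene of its partner, fell (log2 fold change -0.78, SE 0.14, adjusted p = 0.00116). Both rises lost their calls with library size alone, for Mylip (0.37, adjusted p = 0.412) and Nr1h2 (-0.01, adjusted p = 0.982), and with TNF replicate 4 also left out (adjusted p = 0.0828 and 0.277). Abcg5, a sterol efflux pump of the intestine, fell from 3.94–5.14 to 1.72–2.74 (-1.12, SE 0.20, adjusted p = 0.00115), and Osbpl2, an oxysterol-binding protein, fell from 52.7–70.3 to 25.9–31.3 (-1.06, SE 0.12, adjusted p = 6.62e-05). Abca1, the efflux pump best known as an oxysterol receptor target, was at 1.02–2.105 and 1.404–1.81 and was not called (0.12, SE 0.27, adjusted p = 0.744). Ch25h, the cholesterol hydroxylase that inflammatory signals induce in macrophages, had 0 counts in all 8 libraries, which allows up to 3 counts per library, and Cyp7b1, which metabolizes its product, had 4 counts in all 8 together.

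Of the 5 genes of the fatty acid route 4 were tested, 1 was called higher and 2 lower (75%, against 43% of all genes tested). The sums of the 4 overlapped (189.9 to 244.9 normalized CPM in PBS, 168.2 to 207.5 in TNF). Acly (ENSMUSG00000020917), the enzyme that cuts citrate into the acetyl-CoA both routes use, was at 126, 112, 109 and 110.2 in PBS and at 83.3, 85.3, 102 and 72.8 in TNF. TNF replicate 3 came closest to the PBS values without reaching them (-0.41, SE 0.13, adjusted p = 0.0227), and the call was lost without PBS replicate 1, TNF replicate 1 or TNF replicate 2 (adjusted p = 0.0961, 0.0798 and 0.0708).

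Acaca (ENSMUSG00000020532), the acetyl-CoA carboxylase that commits carbon to fatty acids, fell. It was at 12.6, 10.8, 11.04 and 13.8 in PBS and at 8.88, 6.96, 7.13 and 5.16 in TNF. All TNF libraries were lower, replicate 4 most of all, and the fitted change was -0.77 (SE 0.17, adjusted p = 0.00364) and the gene was called lower in all 17 other analyses. Fasn (ENSMUSG00000025153), the synthase that takes the product of Acaca, went the other way. Its levels were 76.9, 70.02, 71.6 and 54.9 in PBS and 91.8, 99.1, 85.5 and 76.5 in TNF, where TNF replicate 4 fell just short of PBS replicate 1. The rise of 0.37 (SE 0.14, adjusted p = 0.0479) passed narrowly and was kept in only 4 of the 17 other analyses. The ratio of Fasn to Acaca within a library was 3.96 to 6.49 in PBS and 10.3 to 14.8 in TNF. Both genes carry an SRE match.

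Of the stearoyl-CoA desaturase genes, Scd1, the main one of the liver, lay near the detection limit. It had 7, 1, 6 and 2 counts in the PBS libraries and 4, 7, 0 and 0 in the TNF libraries, too few to test. Scd2 carried the signal, at 10.98–29.7 normalized CPM in PBS and 11.8–13.8 in TNF. PBS replicate 1, at 29.7, was far above the other PBS libraries (10.98 to 16.6), and no difference was called (-0.50, SE 0.26, adjusted p = 0.138). Without that library the log2 fold change was -0.19, and without PBS replicate 4 it was -0.72 and called (adjusted p = 0.0228).

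The genes that supply, elongate and esterify fatty acids formed a list of 24, all tested, with 6 called higher, 9 lower and a median of -0.21. Calls thus covered 62.5% of this list, against 43% of all genes tested. The 3 largest rises were those of Lpin1, Agpat2 and Elovl7. Lpin1, a phosphatidic acid phosphatase, was at 7.38, 6.73, 5.401 and 10.8 normalized CPM in PBS and 29.04, 16.4, 21 and 27.2 in TNF (1.61, SE 0.24, adjusted p = 0.000314). Agpat2, the acyltransferase of the step before, rose from 8.67–9.699 to 18.9–28.01 (1.47, SE 0.14, adjusted p = 1.73e-05), and Elovl7, an elongase, from 22.5–25.1 to 43.6–63.8 (1.12, SE 0.13, adjusted p = 6.41e-05). The call of Elovl7 was lost with library size alone (0.67, adjusted p = 0.0977). The largest falls were those of Mid1ip1, a protein that promotes the assembly of acetyl-CoA carboxylase (-1.21, SE 0.11, adjusted p = 1.4e-05), of Plin2, a coat protein of lipid droplets (-1.15, SE 0.15, adjusted p = 0.000133), and of Fads1, a desaturase of polyunsaturated fatty acids (-1.05, SE 0.16, adjusted p = 0.000356). Mid1ip1 was at 40.98–45.4 normalized CPM in the PBS libraries and 15.7–20.9 in the TNF libraries, and moved in the same direction as Acaca.

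In the list of fatty acid oxidation, 1 of 14 genes was called higher and 7 lower, with a median of -0.34. Calls thus covered 57.1% of this list, against 43% of all genes tested. Cpt1a, the gate of mitochondrial uptake, was at 75.4, 72.2, 66.7 and 92.7 normalized CPM in PBS and at 31.5, 21.9, 26.97 and 21.2 in TNF (-1.59, SE 0.16, adjusted p = 2.14e-05). Acaa2, the thiolase that ends each round, fell from 64.7–73.5 to 26.1–32.9 (-1.24, SE 0.11, adjusted p = 9.75e-06), and Ppara, the transcription factor of the oxidation genes, from 3.08–3.91 to 1.63–2.45 (-0.77, SE 0.19, adjusted p = 0.00732). Acadl, a dehydrogenase of long-chain acyl-CoA, was the exception and rose from 42.1–74.3 to 91.6–116 (0.96, SE 0.19, adjusted p = 0.00184), but library size alone gave 0.51 and no call (adjusted p = 0.284). The differences between these lists and the synthesis genes were not tested.

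**Figure D4:**
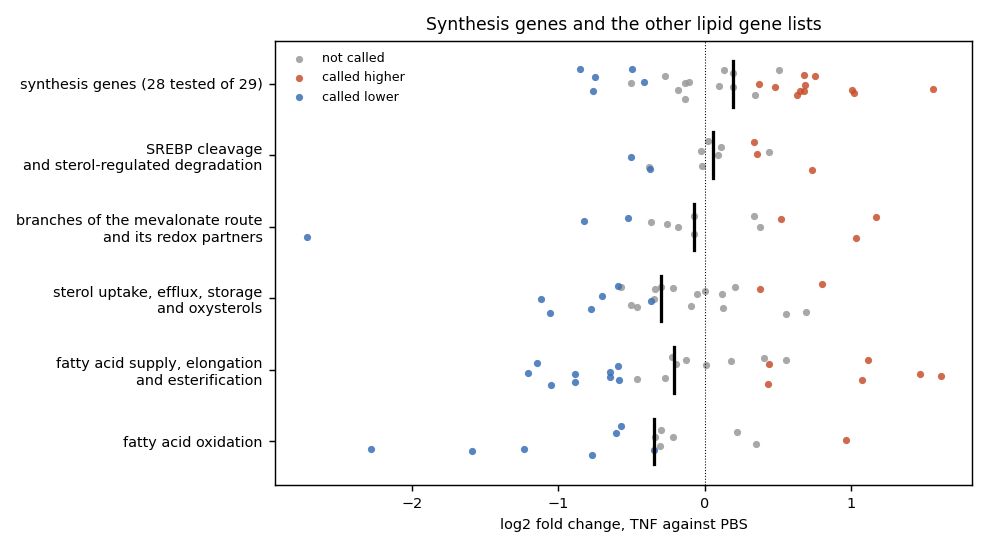
Log2 fold change of TNF against PBS for each tested gene (points, colored by call) of the synthesis set and of 5 other lipid lists, with the median of each list as a black bar. The medians run from 0.19 for the synthesis genes and 0.06 for SREBP cleavage to -0.34 for fatty acid oxidation with TMM scaling, and every list holds genes called in both directions.

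Levels can be compared between genes only per length, here as normalized CPM per kb of the canonical transcript. In PBS, Acly stood highest at 25.9 ± 1.77 (SD, n = 4), followed by Srebf2 at 18.6 ± 1.58, Hmgcs1 at 17.1 ± 2.51 and Insig1 at 15.6 ± 1.92. Srebf2 and Hmgcs1, and Hmgcs1 and Insig1, differed by no more than their SDs. At the low end were Fdps at 0.324 ± 0.107, Acaca at 1.27 ± 0.1504 and Mvk at 1.298 ± 0.307, of which Acaca and Mvk differed by less than their SDs. In TNF, Srebf2 was first at 31.4 ± 2.53, above Acly at 19.4 ± 2.698, and Sc5d, at 12.5 ± 1.24, differed from Hmgcs1, at 12.1 ± 1.27, by less than the SDs. Mvd moved from 2.07 ± 0.277 to 6.14 ± 0.6698 and Mvk from 1.298 ± 0.307 to 0.736 ± 0.211 on this scale.

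How firmly each call stands depends on the scaling and, for some genes, on single libraries. With TMM scaling, leaving out TNF replicate 4 lost 0 of the 16 calls and added those of Fdft1 and Insig1. Leaving out PBS replicate 1 or PBS replicate 3 lost 5 calls each. Of the 16 called genes, 15 were followed through 17 other analyses at the threshold of 0.05, and Fdps through 16, since it was not tested with the filter of 1 CPM in 4 libraries. In all 17, Mvd was called higher and Mvk, Stard4 and Acaca lower, and of these 4 Mvk (adjusted p = 0.013) misses the stricter threshold of 0.01. Library size alone lost the other 12 calls (Srebf1, Srebf2, Insig2, Hmgcs1, Idi1, Fdps, Cyp51, Msmo1, Hsd17b7, Sc5d, Acly and Fasn) with no change of sign among them. The rises among them shrank, while the falls of Hmgcs1 (-0.86, adjusted p = 0.0849) and Acly (-0.77, adjusted p = 0.111) became larger. With no filter beyond 1 count, the calls of Fdps, Hsd17b7, Acly and Fasn were lost (adjusted p = 0.0808, 0.0737, 0.055 and 0.177) and Scd2 was called lower (0.049), and in the further lists Erlin2, Faf2 and Nr1h2 lost theirs (0.0581, 0.146 and 0.105). With library size alone and TNF replicate 4 left out, Mvd stayed called higher (1.39), and Sc5d (0.78), Srebf2 (0.63), Srebf1 (0.52) and Insig2 (0.42) were called higher again, while 6 genes were called lower (Hmgcs1, Mvk, Insig1, Stard4, Acly and Acaca), at a median of all genes of -0.20.

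**Figure D5:**
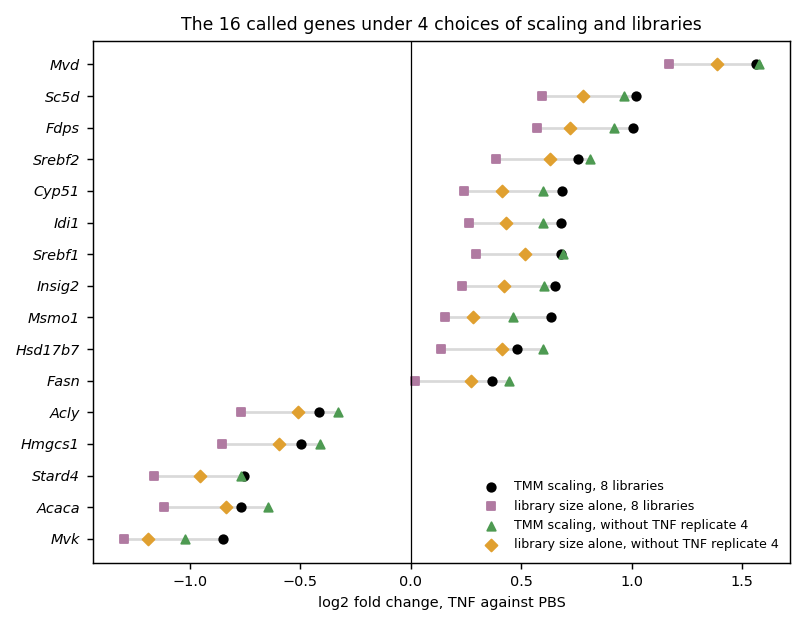
Log2 fold change of the 16 called genes under TMM scaling or library size alone, with all 8 libraries or without TNF replicate 4. Library size alone moved each of them to lower values, Fasn down to 0.02, and none of the 16 crossed 0 under these 4 choices.

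Some of these genes share sequence or position with others, and the sources used here do not say whether the counting used strand or reads with several matches. The share of 75-base stretches of the canonical transcript found in no other gene was at least 95% for 19 of the 29 genes. It was 52.6% for Acaca, where the copy Gm5182 had 5 counts in all, and 65.3% for Fdps, whose 4 copies had at most 5 counts each. Idi1 (75.8%) shared stretches with pseudogenes that held at most 1 count. Exons of 15 genes overlapped an exon on the opposite strand, where reads of both genes cannot be told apart unless strand was used. Hmgcs1 (83.5%) overlapped the antisense gene Gm48342, which fell as well (-0.53, adjusted p = 0.0167), and shared stretches with Baz1a, which rose (1.55, adjusted p = 6.1e-05). Acaca overlapped Tada2a, which also moved in the same direction (-0.82, adjusted p = 0.00196). Cyp51 (74.0%) overlapped Akap9 (0.53, adjusted p = 0.357). Acat2, with 61.1% of its stretches unique, overlapped Tcp1 and shared stretches with Acat3, both of which rose (0.63, adjusted p = 0.0114 and 0.65, adjusted p = 0.00272) while Acat2 was not called. Scap (89.8%), also not called, overlapped Ptpn23, which rose (1.09, adjusted p = 6.83e-05), and this applies to the ratio of Srebf2 to Scap as well. Fdft1 (60.9%) overlapped Ctsb and Sqle (85.5%) overlapped Washc5, neither of which was called (adjusted p = 0.0679 and 0.0629). The stretches of Sc5d, Insig2, Fasn, Msmo1 and Hsd17b7 were all unique.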

How the data were processed

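Paneth cells were sorted from the small intestine of WT mice 3 hours after PBS or TNF (4 libraries each, called biological replicates in the design text), RNA came from an Aurum Total RNA Mini kit and libraries from a TruSeq Stranded mRNA kit. The authors deposited raw counts per gene, with 1 column per library and no normalization. The submitters' processing notes name FastQC 0.12, STAR 2.7.10a, DESeq2 and the build mm39, with no role given. Not given in the sources used here are the counter, its annotation and the treatment of strand and of reads with several matches. The deposited counts summed to 23824717 to 32576077 per library, and since no molecular identifiers are described, limits from a count of 0 (up to 3 counts) cover counting error only.

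Symbols, positions and canonical transcripts came from GENCODE release 39 (GRCm39), which matched 54749 of 55414 IDs. The 665 others stayed in library sizes and tests. TNF was compared with PBS with edgeR 4.0.16 in R 4.3.3 (quasi-likelihood F test, TMM scaling, filterByExpr, no covariate) on all 8 libraries, with Benjamini-Hochberg adjustment over the 13368 genes kept, with a call under 0.05. The SE was derived from the F statistic. P-values weigh the difference between the groups against the spread between libraries within a group. No 2 libraries of a group agreed within counting noise (lowest chi-square per degree of freedom 8.77).

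The 29 genes and all lists were chosen with earlier results of these data known. Values of all libraries are given for genes called without overlap between groups, for the regulators, and for Hmgcs1, Sqle, Fasn and Scd1, and from each other list up to 3 called genes per direction, by size of change, with no overlap and a mean of at least 1 normalized CPM are named, plus Ch25h and Abca1. Genes whose exons or stretches overlap those of the 29, and Idi2 and Cyp7b1, were named after their values were seen. Some results that the naming rule covers are not reported here. Alternatives were library size alone, RLE scaling, scaling that left out the Defa, Lyz1 and Itln1 genes, no filter beyond 1 count, a minimum of 1 CPM in 4 or more libraries, limma-voom (limma 3.58.1), DESeq2 1.42.0, a block for the replicate number, a stricter threshold (0.01), and leaving out each library. Library size alone without TNF replicate 4 was added after seeing the data.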

Additional observations from a re-analysis of the deposited data

Results flagged for a closer look

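Among the 106 groups of 4 values examined (PBS and TNF for the 28 tested genes and the other lipid genes named), 8 held a library whose gap to the nearest of the others passed the 95% limit of Dixon's test. Chance alone flags about 1 in 20 groups. 4 of the 8 were in TNF replicate 4, the library with the lowest scaling factor. There, Hmgcs1 was at 41.93 normalized CPM (51.7 to 52.98 in the other TNF libraries), Mvk at 5.156 (2.943 to 3.231), Ebp at 42.54 (24.46 to 26.49) and Lss at 10.66 (10.35 to 10.39, a very small range). In PBS replicate 4, Ggps1 was at 9.78 (8.179 to 8.297 in the other PBS libraries) and Acadl at 74.34 (42.12 to 45.54). Abcg5 in TNF replicate 3 was at 2.739 (1.719 to 1.835) and Agpat2 in TNF replicate 1 at 18.89 (26.87 to 28.01). The cause of these gaps was not tested.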

How the results depend on the processing

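With library size alone the genes called fell from 5746 to 3182, those among the 28 called higher from 11 to 1 and lower from 5 to 3, and the median of the 28 turned to -0.23 (all genes -0.38), with Fdft1 at -0.0211, Sqle at -0.27, Tm7sf2 at -0.32, Nsdhl at -0.20, Ebp at -0.28, Faf2 at -0.0022, Nr1h2 at -0.012 and Abca1 at -0.29 as reversed signs. With TNF replicate 4 also left out, 5 were called higher and 6 lower, the median was -0.0244 (all genes -0.20), and Sqle (-0.049), Tm7sf2 (-0.13), Ebp (-0.17) and Abca1 (-0.10) were reversed. At an adjusted p under 0.01, 6 were higher and 2 lower. Leaving out 1 library gave 4757 to 6923 genes called, 6 (without PBS replicate 3) to 12 higher and 3 (without PBS replicate 1) to 6 lower, medians of 0.12 to 0.25, and ranges through 0 for Tm7sf2 (-0.0544 to 0.1947), Ebp (-0.0097 to 0.2663) and Abca1 (-0.0586 to 0.3125). Deviations from the group means gave no sign that the replicate numbers pair the libraries (correlations of same-numbered libraries 0.023, 0.066, -0.144 and -0.126). So few values cannot exclude a pairing. The fit with the replicate block called 5087 genes, 9 of the 28 higher and 5 lower, with a median of 0.19, and lost Msmo1 and Hsd17b7. The cause of these changes was not tested. Counts were low for Fdps (6 to 29 per library) and Scd1 (0 to 7).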
